A study of Mus musculus with 52 samples.

Results

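Mature microRNAs were compared in the CA region of the mouse hippocampus after 10 weeks of environmental enrichment or of standard housing. All libraries that the labels place in these groups were taken, 8 of CA tissue from enriched mice and 6 of CA tissue from home cage mice, which are 14 of the 52 libraries of the study. The mice of both groups were C57B/6JRj animals of 20 weeks, with no other genotype or agent named in the labels, and the housing (enriched or home cage, for 10 weeks) is the difference between the groups. CA was dissected away from the dentate gyrus (DG) under a microscope, so each library holds the RNA of all cell types of that tissue. The study also holds CA libraries after 2 weeks of each housing and the DG libraries, which serve here for the differences between times and regions. The labels give an age of 20 weeks for those mice too. Separate animals per library, or pooled tissue, are not stated, and the tests below therefore speak of the spread between these libraries, which may be technical.

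A microRNA is cut from a hairpin precursor, and 1 of its strands, named 5p or 3p for the arm it comes from, is loaded into an Argonaute protein. The loaded strand finds messenger RNAs mainly by pairing of its seed, bases 2 to 8, and lowers their translation and stability. Environmental enrichment houses rodents with objects and space to explore, and is used as a long-lasting stimulus of hippocampal activity. The miR-132/miR-212 cluster is known from rodent neurons as a target of the transcription factor CREB that is induced by activity and by the growth factor BDNF, and its products act on dendrite growth and synapses.

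The microRNAs on which the results turn are shown first, with the seed in capitals, as mature sequences from RefSeq for mouse build GRCm38.p6. All arms of miR-132 and miR-212 and the 3 members of the miR-148 family that come from the 3p arm are shown because they let the shared seeds be read.
miR-132-3p: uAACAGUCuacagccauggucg
miR-212-3p: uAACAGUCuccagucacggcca
miR-132-5p: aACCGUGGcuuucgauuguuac
miR-212-5p: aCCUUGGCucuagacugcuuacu
miR-148a-3p: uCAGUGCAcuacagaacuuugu
miR-148b-3p: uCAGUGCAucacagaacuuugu
miR-152-3p: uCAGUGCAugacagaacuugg
The 3p arms of miR-132 and miR-212 have the same seed, AACAGUC, and are identical at 17 of 22 positions. Their 5p arms do not share a seed and are identical at 9 of 22 positions. Within the other family, miR-148a-3p is identical to miR-148b-3p at 20 of 22 positions and to miR-152-3p at 18 of 21 positions, and all 3 share the seed CAGUGCA.

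Enriched library 3 stood apart from the other 13 libraries before any comparison. It held 480792 reads counted to miRNAs, against 3242842 to 5139167 in the others, and only 24.5% of its reads were counted to miRNAs, against 32.2 to 34.5%. Of the 235 miRNAs at 100 CPM (counts scaled to library size) or more, it fell outside the range of the other 13 for 205 (87.2%), whereas each of the 13 fell outside the range of the remaining 12 for 10.2 to 28.9%. The proximal part of the imprinted Dlk1-Dio3 cluster was among the differences: its summed level was 117442 CPM in library 3 and 271106 to 308381 CPM in the other 13. Library 3 was left out of the main values by a rule set beforehand for its low count, and these rest on 7 enriched and 6 home cage libraries. Values of library 3, or values with it included, stand beside the results on single miRNAs and the medians of lists. The level equal to 3 counts was 0.584 to 0.925 CPM in the 13 libraries and 6.24 CPM in library 3; such floors cover counting error only. All 43 pairs of libraries within a group differed by more than sampling noise.

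The tissue label was set beside marker lists, with no tissue from outside the hippocampus to compare with. Neuron-enriched miRNAs summed to 24877 to 29537 CPM in the home cage libraries and 25268 to 28747 CPM in the 7 enriched ones, while the Hox-cluster miRNAs that mark the hindbrain summed to 198 to 454 and 269 to 362 CPM. No list separates CA from DG, so that part of the label was not checked. For miRNAs of at least 1000 CPM the median coefficient of variation between libraries of a group was 5.02% in home cage and 5.35% in enriched tissue, and it rose to 11.7% and 12.6% for those between 10 and 100 CPM.

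After 10 weeks of enrichment miR-132-3p and miR-212-3p were higher in CA, by 26.4 and 28.4% of their home cage levels, and miR-148a-3p was lower, with a change of -20.7%. Among 580 miRNAs tested with edgeR (quasi-likelihood F test, Benjamini-Hochberg adjustment over all 580, two-sided), these were the 3 with an adjusted p under 0.05, or 0.517% of those tested. Of them, 2 were higher (0.345%) and 1 was lower (0.172%). At an unadjusted p under 0.05 there were 45 (7.76%). Of all 580, 299 had a positive and 281 a negative log2 fold change, with a median of 0.003.

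The level of miR-132-3p was 3925 CPM in the lowest home cage library, 4241 at the median and 4520 in the highest, and 5037, 5309 and 5865 CPM in the 7 enriched libraries. Each of the 7 enriched libraries exceeded all 6 home cage libraries. The log2 fold change was 0.34 ± 0.06 (SE; adjusted p = 0.00126), a ratio of 1.26. Library 3 was at 3924 CPM, close to the lowest home cage library. With it included the log2 fold change was 0.28 ± 0.08 (adjusted p = 0.572). In whole tissue a change in the number of cells of a type and a change in the RNA per cell cannot be told apart.

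The level of miR-212-3p was 684, 691 and 751.7 CPM in home cage tissue (lowest, median, highest) and 840, 885 and 1001 CPM after enrichment. Again the groups did not overlap without library 3. The log2 fold change was 0.36 ± 0.06 (adjusted p = 0.00126), a ratio of 1.28. Library 3 held 332 CPM, less than any home cage library, and with it the log2 fold change was 0.24 ± 0.14 (adjusted p = 0.848). Both miRNAs were called whichever of the 13 libraries was left out, with adjusted p from 0.000977 to 0.00639.

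The 5p arms of both hairpins had positive log2 fold changes that did not pass in the fit of 4 CA groups. The home cage libraries held 529, 580 and 639.9 CPM of miR-212-5p (lowest, median, highest) and the enriched ones 639.8, 720 and 785 CPM. In 6 of 7 enriched libraries it exceeded all home cage values, and the remaining one tied with the highest of them. Its log2 fold change was 0.31 ± 0.08 (adjusted p = 0.087), and unlike the 3p arm it was not low in library 3, at 700.4 CPM. For miR-132-5p the home cage values were 554, 596 and 681 CPM and the enriched values 655, 698 and 764 CPM. These ranges overlapped, and the log2 fold change was 0.23 ± 0.07 (adjusted p = 0.214), or 0.21 ± 0.08 with library 3, which held 640 CPM. A fit of only the 2 groups compared called both 5p arms, with adjusted p of 0.00215 for miR-212-5p and 0.0336 for miR-132-5p. DESeq2 called miR-212-5p as well (adjusted p = 0.0207).

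Mir212 lies at chr11:75173388-75173478 and Mir132 at chr11:75173682-75173747 on the plus strand of GRCm38 (mm10), 203 bases apart, both in an intron of the noncoding gene 1700016P03Rik. The 2 hairpins differ in how their reads divide between the arms. The 3p arm gave 87.5% ± 0.536 of the reads of miR-132 in home cage tissue and 88.3% ± 0.538 after enrichment (SD), but for miR-212 it gave 54.8% ± 1.599 and 55.6% ± 2.23. For miR-132 the difference had an exact two-sided permutation p of 0.0245, which became 0.122 after adjustment over the 5 hairpins examined; for miR-212 the exact p was 0.488. In library 3 the 3p share of miR-212 was 32.2%, far under the 52.7 to 58.2% of the other enriched libraries.

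**Figure D1:**
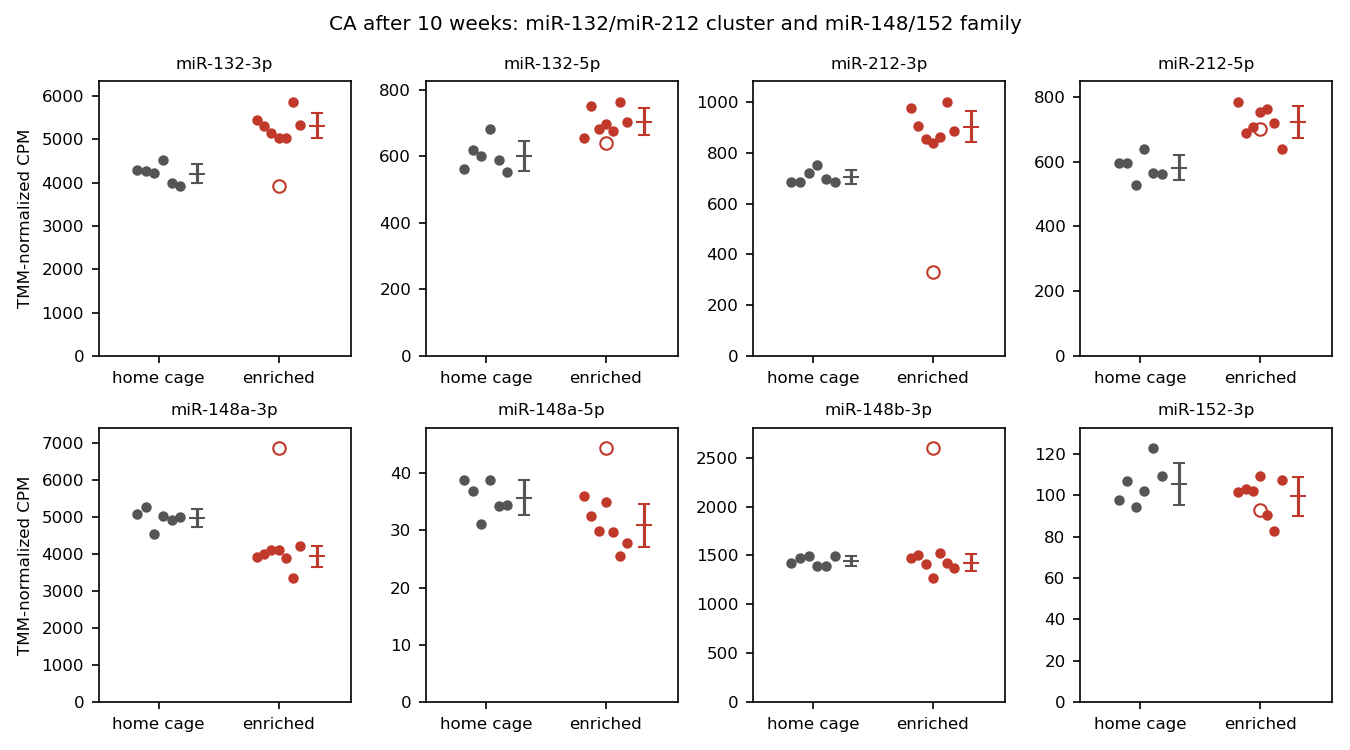
Level of each arm in every CA library after 10 weeks, in TMM-normalized CPM from 0, with home cage libraries in gray and enriched ones in red. The open circle is enriched library 3, and the bar beside each group is its mean ± SD without that library; the 7 enriched points lie above all home cage points for miR-132-3p and miR-212-3p and below them for miR-148a-3p.

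The third called miRNA, miR-148a-3p, fell after enrichment. Members of its family are known from human cells as repressors of the maintenance DNA methyltransferase DNMT1. Levels were 4558, 5029 and 5275 CPM in the home cage libraries and 3370, 4015 and 4219 CPM in the enriched ones. The groups did not overlap without library 3, and the enriched library 7 was the lowest, well under the next at 3908 CPM. The log2 fold change was -0.34 ± 0.08 (adjusted p = 0.0263), a change of -20.7%. Library 3 went the other way, at 6869 CPM, higher than in any home cage library. With it the log2 fold change was -0.21 ± 0.12 (adjusted p = 0.848). This call was less steady than the other two: leaving out single libraries gave log2 fold changes from -0.36 to -0.30 with adjusted p from 0.0303 to 0.122, over the threshold for 7 of the 13 libraries, which are home cage 1, 2 and 6 and enriched 1, 2, 6 and 7.

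The other members of the family gave smaller differences. The other arm, miR-148a-5p, ranged from 31.0 to 38.8 CPM in home cage and from 25.5 to 35.9 CPM in enriched tissue, and differed by -0.20 ± 0.09 on the log2 scale (adjusted p = 0.606). Levels of miR-148b-3p were 1392 to 1498 CPM and 1275 to 1524 CPM, with a log2 fold change of -0.02 ± 0.06. Those of miR-152-3p were 94.4 to 123 CPM and 82.6 to 109 CPM, with -0.08 ± 0.08. The ranges overlapped for all 3, and neither of the 2 that share the seed of miR-148a-3p passed the threshold (adjusted p = 0.955 and 0.908). In library 3 miR-148a-5p was at 44.3 CPM and miR-148b-3p at 2594 CPM, above both ranges, and miR-152-3p at 92.6 CPM. With it the log2 fold changes of these 3 were -0.18 ± 0.10, 0.11 ± 0.11 and -0.10 ± 0.09. The genes lie apart: Mir148a at chr6:51269812-51269910 on the minus strand with no host gene on its strand, Mir148b at chr15:103285125-103285221 in an intron of Copz1, and Mir152 at chr11:96850393-96850465 in an intron of Copz2, both on the plus strand. The 3p arm gave 99.3% of the reads of miR-148a in home cage and 99.2% in enriched tissue.

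Counting only whether the groups overlapped, 2 miRNAs lay wholly higher in the 7 enriched libraries (0.345%) and 2 wholly lower (0.345%). The first were miR-132-3p and miR-212-3p. The second were miR-148a-3p and miR-3085-3p, a miRNA of chromosome 19.
miR-3085-3p: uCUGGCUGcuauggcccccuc
It is shown for its lack of overlap, and no other tested miRNA has its seed. Its level was 143.5 to 160 CPM in home cage tissue and 119 to 133 CPM after enrichment. The difference was -0.22 ± 0.07 on the log2 scale and did not pass adjustment (adjusted p = 0.214). Library 3 held 26.2 CPM, and with it the value was -0.34 ± 0.16.

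**Figure D2:**
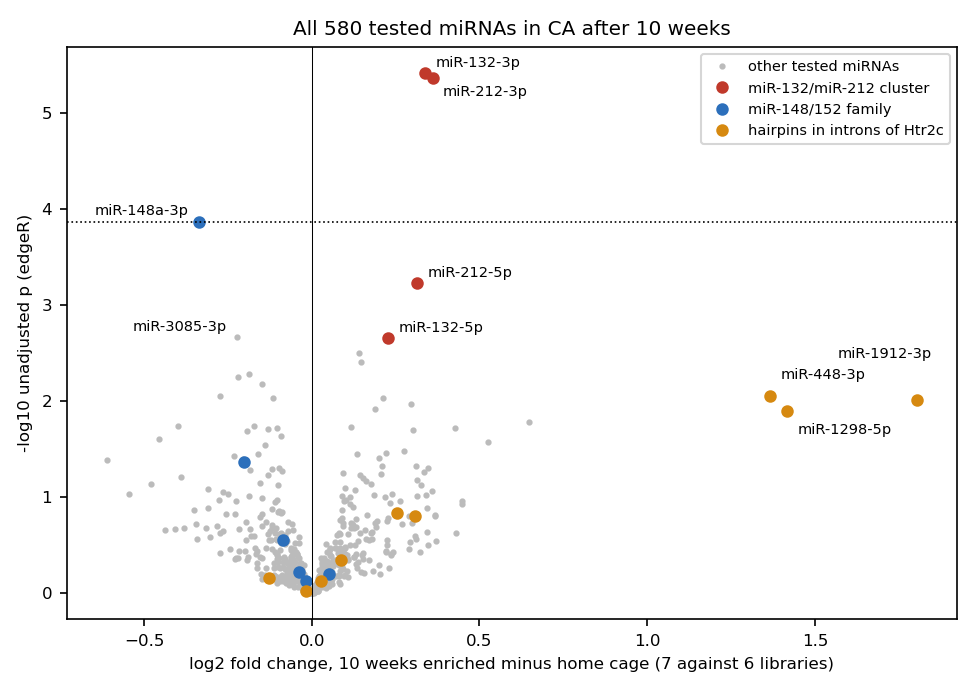
Every tested miRNA by its log2 fold change (7 enriched against 6 home cage libraries) and by -log10 of its unadjusted edgeR p. The dotted line marks the least significant call; the 3p arms of the cluster lie above it at 0.34 and 0.36, miR-148a-3p lies on it at -0.34, and 3 miRNAs from introns of Htr2c lie far to the right below it.

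The 10 positive differences with the smallest p below the threshold include both 5p arms of the cluster, and miR-448-3p, miR-1298-5p and miR-451a, which are described further on. The other 5 had log2 fold changes of 0.12 to 0.21. For miR-93-5p, a member of the miR-106b/25 cluster in the gene Mcm7, levels were 873 to 992 CPM in home cage and 969 to 1091 CPM in enriched tissue (log2 fold change 0.14 ± 0.04, adjusted p = 0.265). For miR-21a-5p, a miRNA raised in reactive glia and in injury, they were 4325 to 4747 and 4534 to 5389 CPM (0.15 ± 0.05, adjusted p = 0.287). Both pairs of ranges overlapped. In library 3, miR-93-5p was far lower (352 CPM) and miR-21a-5p far higher (12182 CPM) than in any of the 13, and with it the log2 fold changes were 0.02 ± 0.14 and 0.38 ± 0.15. For miR-674-5p, miR-664-3p and miR-192-5p the log2 fold changes were 0.21 ± 0.08, 0.19 ± 0.07 and 0.12 ± 0.05, with adjusted p of 0.353 to 0.428. With library 3 they were 0.18, 0.38 and 0.11.

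Negative differences of the same kind were found for miR-551b-3p (-0.22 ± 0.07), miR-187-3p (-0.27 ± 0.10), miR-488-3p (-0.19 ± 0.08), miR-376a-3p (-0.19 ± 0.06), miR-190a-5p (-0.17 ± 0.07), miR-153-3p (-0.13 ± 0.05) and miR-136-5p (-0.10 ± 0.04), all with adjusted p of 0.327 to 0.428. Of these, miR-153 and miR-488 are known as neuronal miRNAs, and miR-376a and miR-136 come from the Dlk1-Dio3 cluster. For miR-376a-3p the home cage range was narrow, 146.1 to 156 CPM, and the enriched range, 118 to 154 CPM, reached into it. With library 3 the log2 fold change became positive for miR-376a-3p (0.02), miR-190a-5p (0.35), miR-153-3p (0.12) and miR-136-5p (0.19), and was -0.30 for miR-551b-3p, -0.40 for miR-187-3p and -0.02 for miR-488-3p.

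A pair from the miR-181 family, which shares its seed, had negative values that did not pass.
miR-181c-5p: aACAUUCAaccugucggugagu
miR-181d-5p: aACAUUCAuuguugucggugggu
These are shown to set the common seed beside their differing 3′ parts. The level of miR-181c-5p was 9338 to 10390 CPM in home cage and 8568 to 9744 CPM in enriched tissue, a log2 fold change of -0.11 ± 0.04. That of miR-181d-5p was 1407 to 1654 and 1303 to 1464 CPM, -0.15 ± 0.05 on the log2 scale (adjusted p = 0.353 for both). Library 3 held 8235 and 1546 CPM of them, and with it the values were -0.14 ± 0.05 and -0.13 ± 0.07. Of the 4 tested miRNAs with this seed, 1 had a positive log2 fold change, and their median was -0.07.

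The most abundant miRNAs gave no call. In home cage tissue miR-127-3p, from the Dlk1-Dio3 cluster, averaged 214427 ± 15066 CPM and in enriched tissue 215469 ± 12425 CPM (SD), with a log2 fold change of 0.01 ± 0.06. Library 3 held 34422 CPM of it, and with that library the value was -0.16 ± 0.21. The second in level, miR-22-3p, ranged from 75879 to 85954 CPM in home cage and from 80692 to 100801 CPM in enriched tissue (0.13 ± 0.06, adjusted p = 0.579), and with library 3 the log2 fold change was 0.07 ± 0.08. For miR-434-3p, miR-125a-5p and miR-27b-3p the log2 fold changes lay between -0.04 and 0.09, and with library 3 between -0.02 and 0.10. Library composition did not differ past the threshold either: over 5 measures, among them the miRNA total and the share of reads aligned to several places, exact permutation tests gave adjusted p of 0.772 to 0.773.

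Lists of miRNAs, chosen with earlier results of these data known, set the called members among their relatives. Of all 580 tested, 3 (0.517%) were called. In the miR-132/miR-212 cluster all 4 arms were positive and 2 were called, with a median log2 fold change of 0.33. In the miR-148 family, 1 of 6 was called, lower, with a median of -0.06. Of 33 tested miRNAs known for roles in synaptic plasticity, the 2 called were the same members of the miR-132/miR-212 cluster, and the median of the list was 0.01. No member was called among 28 proximal and 63 distal Dlk1-Dio3 miRNAs (medians -0.01 and 0.01), 28 neuron-enriched miRNAs (-0.04), 19 of the let-7 family (0.03), 12 of the miR-30 family (-0.003), 7 of the miR-29 family (-0.03), 8 of the miR-181 family (-0.03) or 14 of the miR-17/92 cluster and its paralogs (0.04). At an unadjusted p under 0.05 these 8 lists held 2, 2, 4, 0, 0, 0, 2 and 2 members, in the same order, where 45 of all 580 tested (7.76%) did. With library 3 their medians were -0.08, 0.003, 0.01, 0.22, 0.04, 0.004, -0.09 and 0.01, in the same order. Those of the cluster, the miR-148 family and the synaptic plasticity list were then 0.26, -0.03 and 0.0004, with no member called.

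Markers of other cell types gave no call in edgeR either. The 5 erythrocyte markers all had positive log2 fold changes, with a median of 0.22, and summed to 301 to 398 CPM in home cage and 372 to 476 CPM in enriched tissue, against 1079 CPM in library 3. The erythroid miR-451a, the most abundant of them, ranged from 183.5 to 279 CPM and from 252 to 331 CPM (0.30 ± 0.11, adjusted p = 0.368). Library 3 held 737 CPM of it, and with that library the value was 0.53 ± 0.19. The 5 oligodendrocyte markers were positive as well, with a median of 0.09 and sums of 6146 to 7784 and 6915 to 7650 CPM. Medians were -0.02 for 10 astroglia, -0.03 for 7 microglia and leukocyte and -0.11 for 6 vascular and mesenchymal markers. For 2 hindbrain markers the median was -0.05, and for 2 tested members of the miR-183 cluster, which marks sensory and pineal cells, it was 0.39. At an unadjusted p under 0.05, 1 erythrocyte, 1 astroglia and 1 choroid plexus and ependyma marker were counted, and none in the other cell type lists. Of all 580 tested, 45 (7.76%) passed that level. With library 3 the medians were 0.45 for erythrocyte, 0.11 for oligodendrocyte, 0.02 for astroglia and 0.05 for microglia and leukocyte markers. They were -0.11 for vascular and mesenchymal markers, 0.11 for hindbrain markers and 0.42 for the miR-183 cluster. The part of these cell types in the called differences was not tested.

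**Figure D3:**
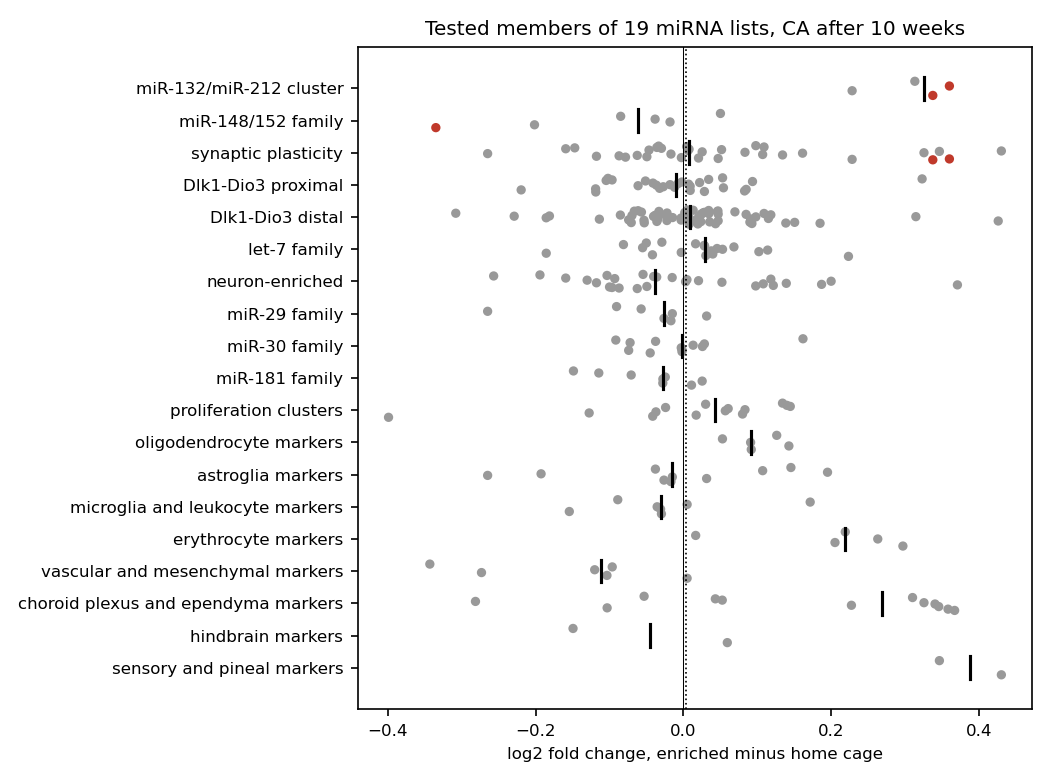
Log2 fold change of each tested miRNA of 19 lists in CA after 10 weeks, with calls in red, a black bar at the median of each list and a dotted line at the median of all 580 tested (0.003). The cluster of miR-132 and miR-212 lies wholly to the right at 0.23 to 0.36, while most lists are centered near 0.

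The largest log2 fold changes belonged to miRNAs encoded in introns of Htr2c, the serotonin receptor gene of the X chromosome, and among the 7 enriched libraries of the main values they came from 2. Enriched library 3, outside those 7, was also above the home cage range for miR-448-3p, miR-1298-5p, miR-1912-3p and miR-1264-3p. These miRNAs are shown because the same 2 libraries were high for each of them, though no seed is shared.
miR-448-3p: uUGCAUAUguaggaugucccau
miR-1298-5p: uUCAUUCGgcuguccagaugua
miR-1912-3p: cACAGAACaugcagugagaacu
On the plus strand of GRCm38, Mir764 lies at chrX:147002259-147002366, Mir1912 at chrX:147009441-147009527, Mir1298 at chrX:147064905-147065002 and Mir448 at chrX:147158210-147158321. The hairpin Mir1264 lies between those of miR-1912 and miR-1298. In home cage libraries miR-448-3p ranged from 37.8 to 65.6 CPM, and in 5 enriched libraries from 45.9 to 56.4 CPM. Enriched libraries 1 and 5 held 381 and 297 CPM, and library 3 held 242 CPM. Its log2 fold change of 1.37 ± 0.49 did not pass (adjusted p = 0.353), and without libraries 1 and 5 it was -0.03.

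The pattern recurred in other arms of the locus, and not in all. In the same 2 libraries miR-1298-5p was at 1506 and 1223 CPM, against 159 to 217 CPM in home cage tissue and 169 to 185 CPM in the other 5 enriched libraries (1.42 ± 0.53, adjusted p = 0.386). Library 3 held 576 CPM of it. Without libraries 1 and 5 its log2 fold change was -0.14, and with library 3 added to the 7 it was 1.43 ± 0.53. The level of miR-1912-3p, picked for mention after its values were seen, was 28.6 and 18.7 CPM in libraries 1 and 5, 12.1 CPM in library 3 and 1.58 to 4.89 CPM in the other 11. That of miR-1264-3p was 44.3 and 44.0 CPM in libraries 1 and 5, higher still in library 3 at 46.3 CPM, and 17.3 to 23.6 CPM in the others. By contrast miR-764-3p, from the same gene, was at 54.2 and 49.2 CPM, close to the home cage maximum of 48.6 CPM, and library 3 was low for it, at 6.04 CPM. Among the other 24 CA libraries of the fit, 2 were above 100 CPM for miR-448-3p, both of them after 2 weeks of enrichment, where the highest was 251 CPM.

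Enriched libraries 1 and 5 were also high for part of the choroid plexus and ependyma markers. Of the 12 tested miRNAs of that list, 9 had positive log2 fold changes (median 0.27, or 0.30 with library 3).
miR-204-5p: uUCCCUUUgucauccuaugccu
This is the most abundant marker of that list, encoded in an intron of Trpm3. It was at 12507 and 10906 CPM in these libraries, against 5154 to 6161 CPM in home cage tissue, 4773 to 5977 CPM in the other 5 enriched libraries and 8545 CPM in library 3. The summed list was at 20009 and 19283 CPM in libraries 1 and 5. It was 8037 to 12587 CPM in home cage tissue and 8899 to 11601 CPM in the other enriched libraries. Most of this excess was miR-204-5p itself: without it the sum was 7502 and 8376 CPM in libraries 1 and 5. Home cage tissue then held 2810 to 7192 CPM and the other enriched libraries 4126 to 6159 CPM. In all, 5 of the 12 markers were higher in both libraries than in any of the other 11. They were miR-204-5p and the 4 arms of miR-34b and miR-34c, known from ciliated cells. For miR-34c-5p, at 6706 and 7604 CPM, and miR-34b-5p, at 255 and 267 CPM, the home cage maxima of 6500 and 247 CPM were close. The other 7 markers were not higher in both. How many of all tested miRNAs were higher in both libraries was not counted, so these 5 have no background share beside them. Of the epithelial miR-200 family, miR-200b-3p was at 107 and 100.5 CPM, within the home cage range of 91.0 to 128 CPM. From the miR-449 family, which is related to miR-34, miR-449a-5p at 4.17 and 3.90 CPM was within 3.63 to 5.72 CPM. The part of these cells in the Htr2c-intron values was not tested. Without libraries 1 and 5, miR-132-3p and miR-212-3p were still called, with log2 fold changes of 0.34 and 0.35, while miR-148a-3p kept its size at -0.35 but not its call (adjusted p = 0.0624).

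**Figure D4:**
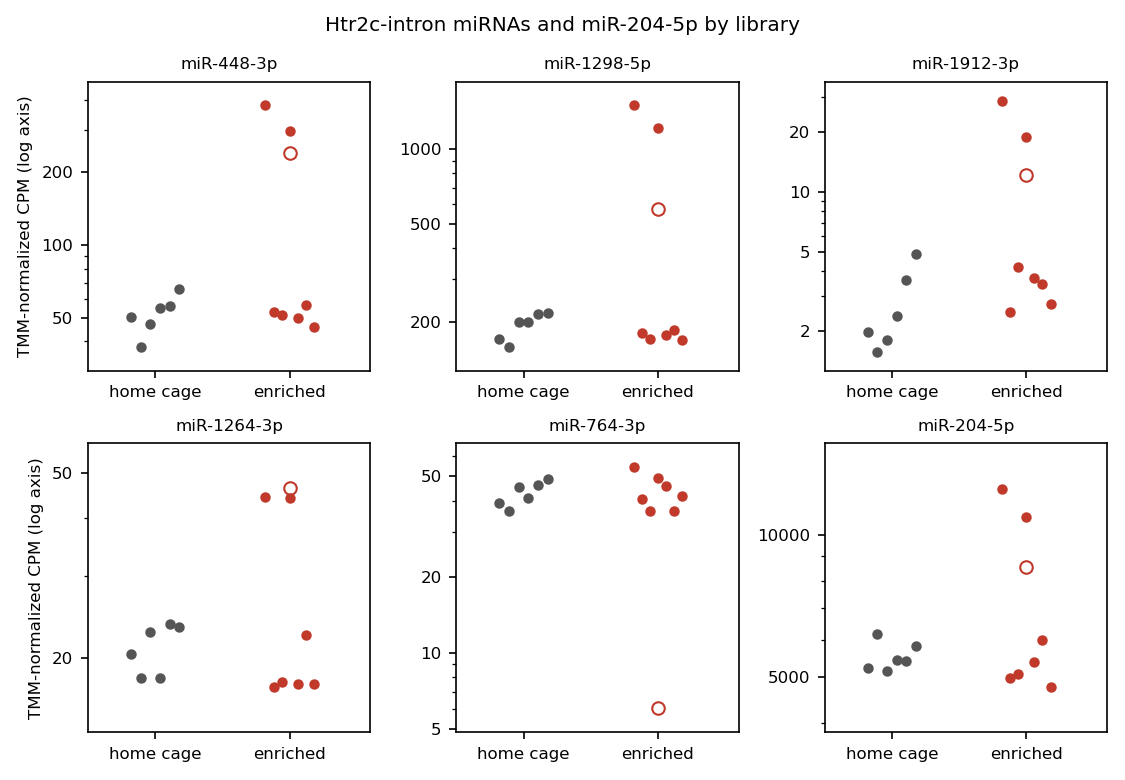
Level of 5 miRNAs from introns of Htr2c and of miR-204-5p in each CA library after 10 weeks, in TMM-normalized CPM on a log axis, with home cage libraries in gray, enriched ones in red and library 3 as an open circle. Enriched libraries 1 and 5 lie above the other 11 for miR-448-3p, at 381 and 297 CPM, and library 3 is also above the home cage range there. For miR-764-3p libraries 1 and 5 lie close to the rest and library 3 lies below.

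The effect after 10 weeks was set beside that after 2 weeks in the same CA fit, in which each time has its own home cage group. For miR-132-3p the log2 fold change at 2 weeks was 0.33 ± 0.06 (adjusted p = 0.00132), with home cage levels of 3538 to 4323 CPM and enriched levels of 4367 to 5754 CPM. For miR-212-3p it was 0.45 ± 0.06 (adjusted p = 5.65e-05), with levels of 613 to 877 and 876 to 1071 CPM. At 2 weeks the groups did not overlap for miR-132-3p and met at 1 edge for miR-212-3p. The log2 fold change at 10 weeks minus that at 2 weeks was 0.003 ± 0.08 for miR-132-3p and -0.09 ± 0.09 for miR-212-3p (adjusted p = 0.992 for both). For miR-148a-3p the 2-week value was -0.10 ± 0.08 (adjusted p = 0.719), with ranges of 3896 to 5389 and 3713 to 5631 CPM that overlapped. The difference between times for miR-148a-3p was -0.23 ± 0.11 (adjusted p = 0.992), so that a different effect at the 2 times was not shown.

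At 2 weeks 9 of the 580 miRNAs were called (1.55%). Those also named above for 10 weeks were miR-21a-5p at 0.25 ± 0.05 (adjusted p = 0.00165), miR-27b-3p at 0.21 ± 0.05 (adjusted p = 0.0461), miR-192-5p at 0.18 ± 0.05 (adjusted p = 0.0498) and miR-187-3p at -0.43 ± 0.10 (adjusted p = 0.0162), beside miR-132-3p and miR-212-3p. No miRNA was called in edgeR for a difference in its effect between the times, although 22 of 580 had an unadjusted p under 0.05. DESeq2 and voom called 0 as well, which does not show that the effects were equal. Between 2 and 10 weeks within 1 housing, 12 miRNAs were called in home cage tissue (2.07%) and 55 in enriched tissue (9.48%). Of these, miR-376a-3p was lower at 10 weeks in both, by -0.33 ± 0.06 (adjusted p = 0.00453) and -0.44 ± 0.06 (adjusted p = 2.04e-05). Likewise miR-488-3p was lower in enriched tissue (adjusted p = 0.000153) and in home cage tissue (adjusted p = 0.043). Between the times miR-3085-3p was lower at 10 weeks in enriched tissue (-0.25 ± 0.06, adjusted p = 0.0130) and differed by -0.05 ± 0.07 in home cage tissue (adjusted p = 0.722), and the difference of these differences was -0.19 ± 0.09 (adjusted p = 0.992). The 3p arms of the cluster were called in neither housing between the times. The CA libraries of the 2 times also differed in the share of reads in no miRNA. It was 3.37 to 3.96% at 2 weeks and 4.28 to 4.78% at 10 weeks. Time and any batch of library preparation cannot be told apart here, and their parts in these calls were not tested.

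A fit of 51 libraries with both regions gave the same comparison in DG. There the log2 fold change was 0.34 ± 0.08 for miR-132-3p (adjusted p = 0.0293), 0.41 ± 0.09 for miR-212-5p (adjusted p = 0.00922) and 0.30 ± 0.10 for miR-212-3p (adjusted p = 0.169), and 3 of 594 miRNAs were called (0.505%). The value in CA minus that in DG was -0.01 ± 0.12 for miR-132-3p, 0.05 ± 0.13 for miR-212-3p and -0.15 ± 0.13 for miR-148a-3p, whose log2 fold change in DG was -0.19 ± 0.09 (adjusted p = 0.507). No miRNA was called in edgeR for a difference between the regions in this effect, with 22 of 594 at an unadjusted p under 0.05. The lack of a call does not show that the effects were equal. In this wider fit, which takes its spread from all 51 libraries, the CA values were nearly the same, 0.33 for miR-132-3p and 0.35 for miR-212-3p, and -0.34 for miR-148a-3p, but the adjusted p of all 3 was 0.0942, over the threshold.

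**Figure D5:**
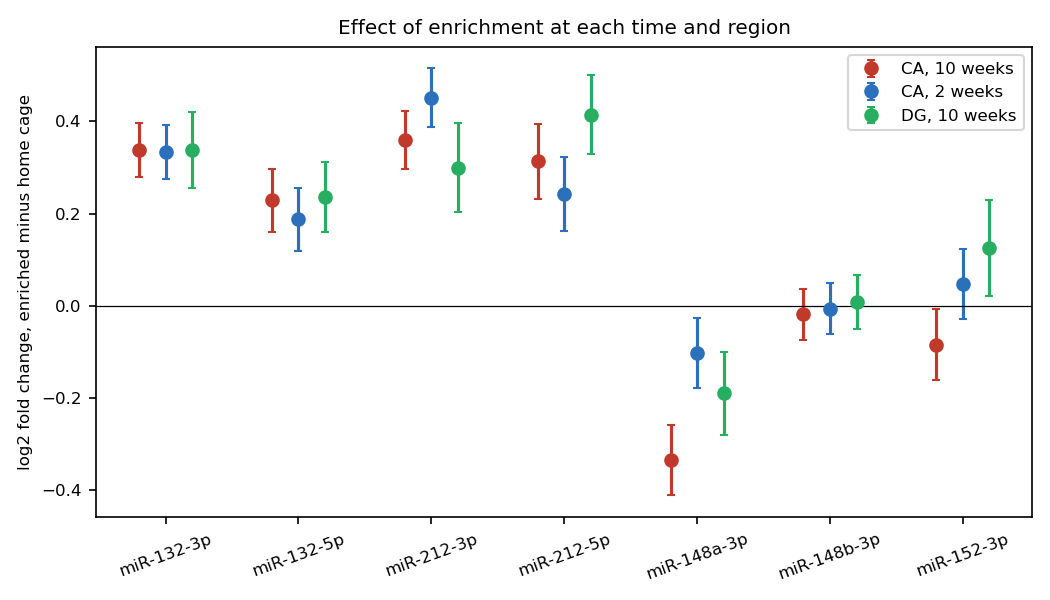
Log2 fold change of enrichment over home cage for 7 miRNAs in CA after 10 weeks (red), CA after 2 weeks (blue) and DG after 10 weeks (green), with bars of 1 SE. The 4 arms of the cluster are positive in all 3 comparisons, and miR-148a-3p is lowest in CA after 10 weeks, at -0.34, against -0.10 and -0.19.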

How the data were processed

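The authors deposited, for each library, the raw count of reads of 1900 mature miRNAs. Per the submitters' processing notes, CASAVA 1.8.2, cutadapt, STAR and HTSeq were used with the mm10 genome. Other versions, and which miRNA annotation was counted, were not given in the sources used here. Libraries were made with Illumina TruSeq chemistry from total RNA, per the labels' protocols. The 5 closing entries, of reads given to no miRNA, were dropped. Multiply aligned reads, 60.6 to 62.9% of the total in the 13 main libraries and 70.2% in enriched library 3, are among them. A miRNA made from more than 1 hairpin, such as miR-128-3p or miR-92a-3p, can lose such reads.

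Counts were tested with edgeR 4.0.16 in R 4.3.3 (quasi-likelihood F test with TMM scaling, after filterByExpr, with 1 mean per group) on 26 CA libraries in 4 groups, or 51 libraries for the regions, without enriched library 3. Adjusted p-values are Benjamini-Hochberg over all miRNAs tested, two-sided, at a threshold of 0.05. Each SE was computed as the log2 fold change over the root of its F. CPM carry the TMM scaling, except the floors of 3 counts and the number of miRNAs at 1 CPM or more, which use library totals. The CPM printed for library 3 come from the scaling with it included. The ranges of the other libraries printed beside them come from the scaling without it. Shares of the 3p arm and library composition were compared with exact two-sided permutation tests (scipy 1.17.1).

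Named miRNAs are the called ones, the 10 higher and 10 lower ones of at least 10 CPM with the smallest p, relatives of the called ones, 2 per list, and the 5 most abundant; the Htr2c group was added after its values were seen. Members and the 19 lists were chosen with earlier results of these data known. Of 1900 miRNAs, 1603 matched the RefSeq table by name; hosts came from GENCODE M21. Alternatives were DESeq2 1.42.0, limma 3.58.1 (voom), other scalings and filters, a replicate block and leaving out libraries.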

Additional observations from a re-analysis of the deposited data

Results flagged for a closer look

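Of 122 sets of values tested for a single sample far from the rest of its group, 5 held one, and chance alone would flag about 1 set in 20. In the 7 enriched libraries of the main comparison, miR-148a-3p stood at 3369.7 CPM in library 7, under 3908 to 4219 CPM in the others. Without library 7 its log2 fold change was -0.30 and its adjusted p in edgeR 0.122. Again among the 7, miR-182-5p stood at 197 CPM in library 8, above 125.6 to 151 CPM in the others. The remaining 3 concern enriched library 3 among the 8. It had a miRNA total of 480792 counts, 24.5% of reads counted to miRNAs and 70.2% of reads aligned to several places. That library had been set apart beforehand for its low count, so these 3 cannot be set against the rate given for chance. The depth of library 3 and its composition moved together, and their part in its values was not tested.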

How the results depend on the processing

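The calls of miR-132-3p and miR-212-3p passed under every alternative of the CA fit except that with enriched library 3 (in the wider fit of 51 libraries the adjusted p of both, and of miR-148a-3p, was 0.0942). With library 3, 0 miRNAs were called higher and 0 lower, and 0 in each of the cluster, miR-148 family and synaptic plasticity lists. Counts of higher calls were otherwise 2 to 4, with 4 in a fit of the 2 groups (both 5p arms added), 3 with DESeq2, 3 with no filter (miR-212-5p added in each) and 2 to 3 when single libraries were left out (miR-212-5p added without home cage library 4 or enriched library 8). Lower calls were 0 under the replicate block, 0 without enriched libraries 1 and 5 (chosen after seeing the data) and 0 to 1 when single libraries were left out. Time and region differences gave 0 calls throughout. Replicate numbers were not treated as pairs in the main fit, since the labels do not say whether they pair samples. Deviations of same-numbered enriched and home cage libraries correlated at -0.05 to 0.28 over 5 pairs, 1 of them best with its own number. Those of CA with DG correlated at -0.18 to 0.17. With so few pairs, such correlations cannot decide whether samples were paired. The block kept 2 higher calls, and with the block in the fit of the 2 groups there were 3 higher, miR-212-5p added, and 1 lower. In library 3 a floor of 3 counts is 6.24 CPM.

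Values that changed sign were mostly small; the cause was not tested. With library 3 these were log2 fold changes of miR-10b-5p (0.064), miR-125a-5p (0.024), miR-127-3p (-0.16), miR-136-5p (0.19), miR-148b-3p (0.11), miR-148b-5p (0.11), miR-153-3p (0.12), miR-190a-5p (0.35), miR-29a-3p (0.043), miR-29c-3p (0.11), miR-30a-5p (0.041), miR-376a-3p (0.017), miR-764-3p (-0.053) and miR-92a-3p (-0.024), the time difference of miR-132-3p (-0.058), the region difference of miR-212-3p (-0.040), and differences in 3p share of miR-212 (-2.15 points) and miR-148b (-0.11 points). Without libraries 1 and 5 they were miR-10a-5p (-0.038), miR-1264-3p (-0.20), miR-1298-5p (-0.14), miR-204-5p (-0.086), miR-448-3p (-0.030) and miR-764-3p (-0.10). Under the replicate block they were miR-127-3p (-0.00023), miR-152-5p (-0.0011) and miR-30a-5p (0.00050), with the time difference of miR-132-3p (-0.0062), and with the block in the fit of the 2 groups miR-148b-3p (0.020), miR-29a-3p (0.0050) and miR-30a-5p (0.010). The fit of the 2 groups turned miR-125a-5p (0.0099) and miR-30a-5p (0.012), voom miR-10b-5p (0.0069), and library totals alone let-7i-5p (-0.0057) and miR-127-3p (-0.015). The region difference of miR-132-3p turned positive with DESeq2 (0.0074), RLE scaling (0.0074), library totals (0.021), a mean of at least 10 CPM (0.013) and without libraries 1 and 5 (0.027).

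Leaving out single libraries gave -0.0039 to 0.038 for let-7i-5p, -0.0094 to 0.15 for miR-10a-5p, -0.30 to 0.090 for miR-10b-5p, -0.054 to 0.037 for miR-125a-5p, -0.024 to 0.030 for miR-127-3p, -0.039 to 0.0011 for miR-148b-3p, -0.083 to 7.1e-05 for miR-148b-5p, -0.0023 to 0.12 for miR-152-5p, -0.038 to 0.0048 for miR-29a-3p, -0.016 to 0.0048 for miR-30a-5p and -0.037 to 0.077 for miR-764-3p. For miR-132-3p the region difference was -0.0037 to 0.041 and the time difference -0.031 to 0.031. The difference in 3p share was -0.11 to 0.26 points for miR-148b and 0.63 to 0.98 points for miR-132, the latter with adjusted p of 0.0253 to 0.252 in exact permutation tests. The number of miRNAs at 1 CPM or more differed by -4.97 to 0.83 and the share of reads in no feature by -0.096 to 0.0038 points.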
